A study of Mus musculus with 18 samples.

Results

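The comparison described here was that of bone marrow-derived macrophages (BMDMs) labelled wild type before RANKL and after RANKL for 1 day, measured by bulk RNA sequencing. Its members were chosen from the sample titles and comprised 6 of the 18 libraries of the series, 3 of day 0 and 3 of day 1. The study compared Zmat1 knockout mice, on a C57BL/6 background, with their wild-type littermates in RANKL-induced osteoclast formation, and the remaining 12 libraries were WT day 3 and the 3 days of the KO label. All 6 libraries came from cultures with M-CSF. The day 0 cultures received M-CSF alone and the day 1 cultures M-CSF with RANKL. Neither the age nor the sex of the mice stands in the labels. The labels name neither an animal nor a culture for a library, so the p-values below measure only the spread between libraries, which may be technical. In the main fits that spread was estimated over all 18 libraries of the series, not over these 6 alone.

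RANKL, a cytokine of the tumour necrosis factor family, binds its receptor RANK on macrophage precursors and signals through TRAF adaptors to NF-kappaB, MAP kinases and AP-1. Together with M-CSF and with costimulation through ITAM-bearing adaptors, this induces NFATc1, the transcription factor that drives the osteoclast genes. The precursors then fuse into multinucleated cells that attach through integrins in podosomes, acidify the bone surface and degrade its matrix with enzymes such as cathepsin K.

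The titles were written in 2 styles, with a double or a single hyphen between the number and the day, and 1 library of each group had a double hyphen. Values are given below in a fixed order: for day 0 the double-hyphen library, then libraries 2 and 3, and for day 1 the double-hyphen library, then libraries 1 and 2. The WT day 1 group held 2 libraries numbered 1, 1 of each style, and none numbered 3. Total counts ranged from 13860786 to 16177131 over the 6 libraries. Both double-hyphen libraries stood apart in composition: their 10 most abundant genes took 18.8% and 19.8% of the counts, against 11.8% to 15.3% in the other 4, and mitochondrial transcripts took 2.76% and 3.47%, against 1.38% to 2.01%. Over the whole series 3310 of 14241 genes tested followed the title style at an adjusted p under 0.05. Macrophage markers were high on average in all 6 libraries (28 of 28 listed genes tested, mean log2 CPM 8.81 to 9.28). Single members were lower, such as Cx3cr1 at a mean of 6.19 CPM on day 0 and 17.8 CPM on day 1. Zmat1, the gene deleted in the mice of the KO label, stood at 7.50, 2.48 and 3.08 CPM on day 0 and at 4, 3.55 and 4.41 CPM on day 1. The 6 KO libraries of these days lay between 3.49 and 7.61 CPM. This gene therefore did not separate the labels.

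Levels are given as CPM, read counts scaled to a common library size with TMM factors. In the comparison without the title style, 335 of 14241 genes passed an adjusted p of 0.05 in edgeR's quasi-likelihood test, which is 2.35% of the genes tested. Of these, 205 rose on day 1 (1.44%) and 130 fell (0.913%), 85 and 53 of them by more than 1 on the log2 scale. Adding the title style to the fit raised the count to 1001 (7.03%), with 647 higher (4.54%) and 354 lower (2.49%). All 335 genes were among the 1001, with the same direction. In 328 of the 335 genes the 3 libraries of one day did not overlap those of the other, a pattern that 2350 of all genes tested (16.5%) showed, 1205 upward (8.46%) and 1145 downward (8.04%). The median log2 fold change over all genes was 0.002 without and 0.001 with the title style. For comparison, WT day 3 against the same day 0 libraries gave 7143 genes.

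The number of calls rested on single libraries, as the plot of calls under each setting shows. Without the title style it was 173 without the double-hyphen day 0 library, 1 without day 0 library 2, and 1070 without day 0 library 3. It was 1809 without the double-hyphen day 1 library, and 0 without day 1 library 1 or without day 1 library 2, where 1650 and 2439 genes had an unadjusted p under 0.05. With the title style the same 6 fits gave 664, 49, 2279, 2251, 31 and 378 genes. A fit of the 6 WT libraries alone called 0 genes either way, with a smallest adjusted p of 0.395 without and 0.191 with the title style, at 1380 and 1790 genes with an unadjusted p under 0.05. DESeq2's Wald test on all 18 libraries called 1221 genes without and 2075 with the title style. The 1 gene called without day 0 library 2 was Sdc1, a heparan sulphate proteoglycan, named after its values were seen (log2 1.33, adjusted p = 0.0077).

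**Figure D1:**
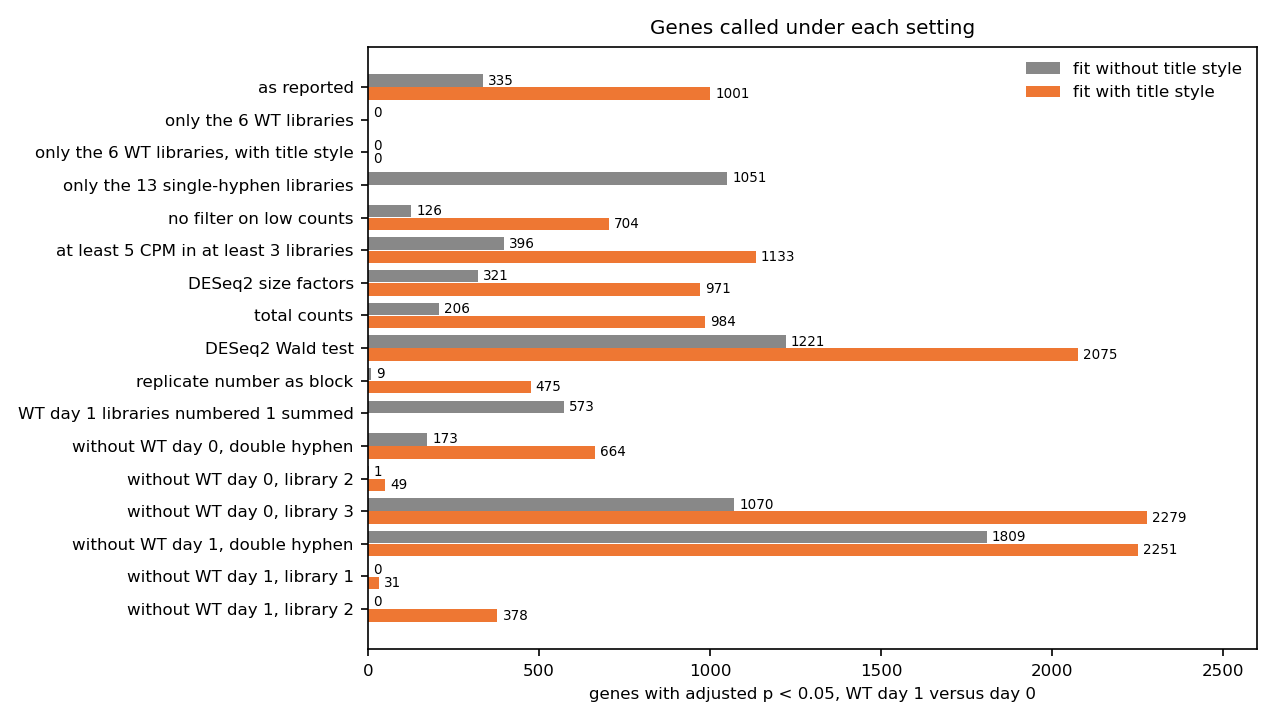
Bars give the number of genes with an adjusted p under 0.05 for WT day 1 against day 0 (horizontal axis) under the settings shown, in grey without and in orange with the title style; no orange bar is drawn where that setting was not run. The counts range from 0 to 1809 without and from 0 to 2279 with the title style.

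The genes of largest change in both fits are taken next, 12 in each direction, with at least 5 CPM in the higher group and no overlap between the days. Nqo1 (chr8:107388225-107403206, GRCm38), a quinone reductase, stood at 7.34, 6.27 and 5.65 CPM on day 0 and at 22.0, 39.9 and 48.5 CPM on day 1. All 3 day 1 libraries lay above all 3 of day 0, a rise of 2.52 ± 0.365 (SE) on the log2 scale with an adjusted p of 0.0256, the smallest of the comparison. Gsta4 (chr9:78191966-78209348), a glutathione S-transferase of lipid aldehydes, had at most 3 counts in each day 0 library and reached 1.83, 8.42 and 7.58 CPM on day 1, at least 25.7-fold higher than the mean level of 3 counts per library (adjusted p = 0.0342). Slc7a11, the cystine importer that feeds glutathione synthesis and not one of these 12, stood at 10.1, 3.95 and 2.93 CPM and at 42.3, 12.6 and 24.8 CPM. Its change was about the same in both fits and passed with the title style (log2 2.27 ± 0.479, adjusted p = 0.022) but lay at the threshold without it (2.24 ± 0.558, adjusted p = 0.05).

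Traf1 (chr2:34941750-34961772), an adaptor of the tumour necrosis factor receptor family, stood at 7.09, 5.80 and 4.79 CPM on day 0 and at 9.92, 123 and 67.1 CPM on day 1. The double-hyphen day 1 library was close to the day 0 range and both single-hyphen day 1 libraries were far above it, a rise of 3.502 ± 0.693 on the log2 scale (adjusted p = 0.0369) and of 3.14 ± 0.621 with the title style (adjusted p = 0.0187). Ppp1r12b, a regulatory subunit of myosin phosphatase, showed the same shape, at 19.9, 17.3 and 31.2 CPM on day 0 and 37.8, 277 and 197 CPM on day 1. Gpr132, a G protein-coupled receptor that responds to lysolipids, rose by 2.74 ± 0.561 on the log2 scale. Cav1 (chr6:17306335-17341452), the scaffold protein of caveolae, went from 1.73, 1.39 and 4.29 CPM to 6.42, 31.4 and 129 CPM, which is 4.48 ± 0.90 on the log2 scale (adjusted p = 0.0381).

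Uchl1, a ubiquitin hydrolase better known from neurons, rose by 2.97 ± 0.50 on the log2 scale, Ass1, which makes argininosuccinate in arginine synthesis, by 2.85 ± 0.579, Fabp7, a fatty acid-binding protein, by 2.60 ± 0.588, and Oit3 by 2.36 ± 0.528. Prl2c2, a proliferin, had 0 counts in all 3 day 0 libraries and 2.58, 8.48 and 5.58 CPM on day 1, at least 24-fold above the level of 3 counts per library. It has near-identical copies in the genome, Prl2c3 among them, so its level is uncertain. On day 3 the means of Nqo1 and Gsta4 were 10.4 and 2.19 CPM, below their day 1 means of 36.8 and 5.94 CPM, whereas Uchl1 stood higher on day 3, at 36.0 CPM.

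The 12 genes that fell most included F13a1 and Cd163 of the macrophage list and Ighm of the B cell markers. F13a1, the coagulation factor XIII A chain found in tissue macrophages, stood at 280, 844 and 351 CPM on day 0 and at 144, 89.4 and 107 CPM on day 1, or -2.12 ± 0.516 on the log2 scale (adjusted p = 0.0478). Cd163, the haemoglobin scavenger receptor, stood at 43.0, 84.7 and 137 CPM on day 0 and at 36.8, 16.5 and 13.2 CPM on day 1 (-1.998 ± 0.478, adjusted p = 0.0468). The double-hyphen day 1 library kept the highest Cd163 of the 3 and came close to the lowest day 0 value. In bulk RNA, fewer cells of a type and less RNA per cell cannot be told apart.

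Ighm, the immunoglobulin mu heavy chain of B cells, fell from 342, 400 and 261 CPM to 67.5, 11.0 and 57.7 CPM (log2 -2.88 ± 0.636, adjusted p = 0.0402). The 12 B cell markers tested summed to 389, 410 and 349 CPM on day 0 and to 122, 23.9 and 73.5 CPM on day 1, of which Ighm was the most abundant in both groups. The next of them on day 0, Igkc, averaged 17.2 CPM and 10.1 CPM on day 1, and Ms4a1 averaged under 3 CPM on both days. Over the 12 markers the median log2 fold change was -1.13 without the title style, with 1 positive. In the double-hyphen pair their median difference was 0.32. The part of B cells in the fall of Ighm was not tested.

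Il10, the anti-inflammatory cytokine, went from 9.48, 5.96 and 8.37 CPM to 3.17, 1.32 and 1.72 CPM (-1.945 ± 0.443, adjusted p = 0.0427). Lifr, the receptor of leukaemia inhibitory factor, went from 23.8, 42.6 and 43.4 CPM to 8.17, 9.20 and 12.4 CPM, with no overlap and with 1 of the smaller adjusted p-values among the falls (0.0342). Cd38, an NAD-consuming ectoenzyme, Kmo, the kynurenine 3-monooxygenase of tryptophan breakdown, and Tnfsf10, the death ligand TRAIL, fell by 2.42 ± 0.521, 2.86 ± 0.622 and 1.82 ± 0.428 on the log2 scale. Asb10, Slc14a1, Cbfa2t3 and Smagp completed the 12, with log2 fold changes from -2.71 to -1.82. Over the 23 genes reported here, each kept its sign in every alternative. They had been chosen for a call in both fits and no overlap between the days, so this was largely set by the choice. Each lost its call in 5 to 9 of 17 or 18 alternatives of the fit without the title style. In the fit with the style, each lost it in 1 to 6 of 13 or 14.

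**Figure D2:**
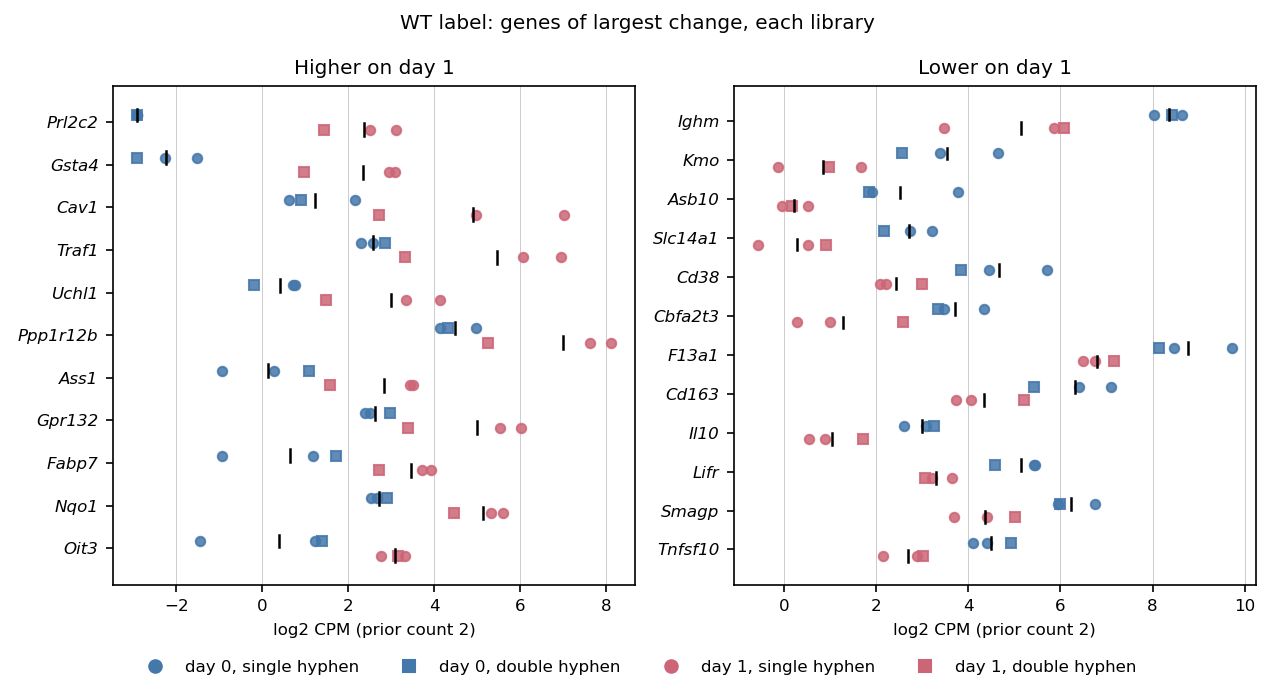
Each point is the log2 CPM (prior count 2) of 1 WT library, blue for day 0 and red for day 1, squares for double-hyphen and circles for single-hyphen libraries; black bars mark the mean of 3 libraries. In the left panel the 3 day 1 libraries of each gene lie to the right of the 3 of day 0, in the right panel to their left, and the red square is the day 1 library nearest to day 0 in most genes, as for Traf1 and Cd163.

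Genes that passed only with the title style, taken as the 6 largest in each direction with at least 10 CPM, included Slc7a11 above. Ptprn, a secretory granule phosphatase, stood at 0.495 CPM on day 0 and 3.00 CPM on day 1 in the double-hyphen libraries and at 1.78 and 9.80 CPM against 21.8 and 24.1 CPM in the others. Map1a, Inpp4b, Akap2 and Pdgfb, the last a platelet-derived growth factor chain, had log2 fold changes from 1.90 to 2.43 with the title style. Among those lower, Cbr2, a carbonyl reductase, stood at 57.6, 243 and 186 CPM on day 0 and at 21.0, 49.5 and 46.5 CPM on day 1. Its log2 fold change was -2.05 ± 0.61 without the style (adjusted p = 0.0812) and -1.92 ± 0.219 with it (adjusted p = 0.00249, which no gene of that fit went below). Ifit1bl1, Zbtb42, Asgr2, Lppr3 and Cd83, the last a marker of activated antigen-presenting cells, had log2 fold changes from -2.88 to -1.88 with the style; for Cd83 the fold change was -1.22 without it.

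RefSeq promoters, from 250 bases before to 50 bases after a start in GRCm38.p6, were searched on both strands for 4 motifs: AP-1 (TGANTCA), the NFAT core (TGGAAA), the E-box CACGTG and the NF-kappaB consensus. Of the genes called with the title style, 497 of 647 higher and 252 of 354 lower genes had an entry. AP-1 motifs stood in 5.81% of 620 promoters of higher genes, 2.83% of 318 of lower genes, 5.48% of 13181 of genes tested and 7.81% of all 32851 in the table. For the NFAT core the same shares were 18.1%, 15.4%, 17% and 21.4%, for the E-box 12.9%, 11.3%, 9.63% and 7.15%, and for the NF-kappaB consensus 6.77%, 5.35%, 5.28% and 4.51%. These shares describe the windows and were not tested. The windows of the first 2 rising and first 2 falling genes of the sets above that had an entry are printed to show the sequence at the starts of Cav1, Traf1, Kmo and Asb10. Capitals mark a motif of the 4, and the only match in them was 1 NFAT core in Traf1, on the reverse strand from position -59.
Cav1 (first start), chr6:17306085-17306384, plus strand: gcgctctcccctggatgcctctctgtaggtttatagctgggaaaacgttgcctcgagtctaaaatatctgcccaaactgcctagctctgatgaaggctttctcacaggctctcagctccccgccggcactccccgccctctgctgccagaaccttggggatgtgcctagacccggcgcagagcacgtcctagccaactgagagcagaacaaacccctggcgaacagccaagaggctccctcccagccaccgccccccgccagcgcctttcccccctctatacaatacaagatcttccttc
Cav1 (next start), chr6:17307390-17307689, plus strand: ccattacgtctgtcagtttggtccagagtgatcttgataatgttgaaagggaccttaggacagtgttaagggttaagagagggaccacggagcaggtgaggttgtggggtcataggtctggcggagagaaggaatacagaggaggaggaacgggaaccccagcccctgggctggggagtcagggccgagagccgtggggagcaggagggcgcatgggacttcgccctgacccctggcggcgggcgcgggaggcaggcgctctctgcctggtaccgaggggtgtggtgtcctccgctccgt
Traf1, chr2:34961723-34962022, minus strand: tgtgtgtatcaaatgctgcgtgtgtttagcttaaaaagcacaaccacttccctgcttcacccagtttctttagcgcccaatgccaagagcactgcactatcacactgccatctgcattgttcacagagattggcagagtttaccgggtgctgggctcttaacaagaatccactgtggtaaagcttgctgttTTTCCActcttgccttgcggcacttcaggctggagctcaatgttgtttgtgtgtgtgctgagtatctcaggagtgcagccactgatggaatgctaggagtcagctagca
Kmo, chr1:175631943-175632242, plus strand: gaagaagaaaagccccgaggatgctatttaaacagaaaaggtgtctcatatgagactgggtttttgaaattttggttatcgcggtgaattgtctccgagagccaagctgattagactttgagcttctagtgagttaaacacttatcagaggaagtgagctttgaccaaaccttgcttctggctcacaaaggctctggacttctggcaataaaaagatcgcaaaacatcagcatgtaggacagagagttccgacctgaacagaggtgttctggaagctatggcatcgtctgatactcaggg
Asb10, chr5:24540929-24541228, minus strand: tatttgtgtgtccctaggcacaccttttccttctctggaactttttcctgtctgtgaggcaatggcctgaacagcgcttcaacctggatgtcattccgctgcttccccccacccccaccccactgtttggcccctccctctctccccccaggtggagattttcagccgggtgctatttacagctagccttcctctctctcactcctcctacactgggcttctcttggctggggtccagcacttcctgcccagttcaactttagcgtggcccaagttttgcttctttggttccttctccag

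Of 19 receptors and adaptors at the head of the pathway, 2 rose without the title style, and 2 rose and 1 fell with it. Their median log2 fold change was -0.07 either way. Over all genes tested, 1.44% rose and 0.913% fell without the style, and 4.54% rose and 2.49% fell with it. These shares stand beside the counts of every list below. Calls of single list genes also moved with the alternatives. With the title style Tnip1 lost its call in 10 of 14, Jund, Bag3 and Atp5b in 9, and Csf1r and Ctsk in 8. Itgb2 lost it in 1 of 14 and Ocstamp in 0 of 13. Without the style Traf2 and Ddx21 lost it in 10 of 18, and Itgb2 in 6. Besides Traf1, Traf2, an adaptor that RANK recruits, rose from 34.2, 22.5 and 32.8 CPM to 36.7, 72.7 and 54.2 CPM (0.87 ± 0.217, adjusted p = 0.0495). Tnfrsf11a, which encodes RANK itself, stood at 45.3, 44.4 and 53.6 CPM on day 0 and at 49.2, 134 and 89.0 CPM on day 1, which did not pass (adjusted p = 0.105 without and 0.0802 with the title style). Csf1r, the M-CSF receptor, was lower in all 3 day 1 libraries, at 5830, 7289 and 4140 CPM against 3664, 2200 and 3750 CPM, and passed only with the title style (-0.85 ± 0.235, adjusted p = 0.0443).

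Of 20 NF-kappaB subunits and regulators, 1 fell without the title style, and 2 rose and 2 fell with it. Nfkbiz, an inducible nuclear cofactor of NF-kappaB, fell from 43.2, 45.0 and 22.4 CPM to 12.3, 10.5 and 14.8 CPM (-1.56 ± 0.347, adjusted p = 0.0405). Nfkb2, the p100 precursor of the non-canonical pathway, stood at 115, 107 and 80.8 CPM on day 0, at 106 CPM in the double-hyphen day 1 library and at 382 and 298 CPM in the single-hyphen ones. Its log2 fold change was 1.37 ± 0.354 (adjusted p = 0.0546) and passed with the title style (1.33 ± 0.362, adjusted p = 0.043). Tnip1, which restrains NF-kappaB, rose with the title style by 0.44 ± 0.119, and Map3k8, a kinase upstream of ERK, fell by 0.845 ± 0.192.

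Among 15 AP-1 factors 1 rose without and 3 with the title style, and none fell. Jdp2, a dimerization partner of Jun proteins in osteoclast differentiation, stood at 11.0, 11.4 and 13.7 CPM on day 0. It reached 12.2 CPM in the double-hyphen day 1 library, within the day 0 range, and 111 and 95.2 CPM in the single-hyphen libraries (2.60 ± 0.625, adjusted p = 0.0468), and its day 3 mean was 550 CPM. Fosl2 and Jund rose with the title style by 0.595 ± 0.145 and 0.375 ± 0.0979, and Batf was lower without passing (adjusted p = 0.0529).

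Of 17 osteoclast-promoting transcription factors none passed without the title style and Myc alone rose with it, from 5.61, 6.11 and 12.2 CPM to 7.25, 49.4 and 26.9 CPM (1.64 ± 0.365, adjusted p = 0.0242). Nfatc1 stood at 107, 110 and 114 CPM on day 0 and at 99.5, 108 and 134 CPM on day 1, which is 0.04 ± 0.193 on the log2 scale (adjusted p = 0.93), with a mean of 638 CPM on day 3. The 12 tested osteoclast repressors gave no call in either fit, with a median log2 fold change of 0.12 and 0.10. Irf8, which holds NFATc1 down, stood at 434, 357 and 356 CPM on day 0 and at 370, 144 and 209 CPM on day 1, which did not pass (-0.67 ± 0.351, adjusted p = 0.297).

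Genes of cell fusion gave 2 rises and no fall among 16 without the title style and 6 rises with it, with a median log2 fold change of 0.53 and 0.55 and 12 of 16 positive. Cd44, the hyaluronan receptor, went from 98.9, 122 and 122 CPM to 192, 290 and 174 CPM (0.94 ± 0.171, adjusted p = 0.0342). Adam8, a membrane metalloproteinase of osteoclast precursors, went from 551, 290 and 544 CPM to 941, 1252 and 806 CPM (1.11 ± 0.241, adjusted p = 0.0388). Both had no overlap between the days and about the same fold change in both fits.

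The fusion receptors Dcstamp and Ocstamp came from near 0. Dcstamp stood at 0.0824, 0 and 0.286 CPM on day 0 and at 1.42, 1.68 and 3.72 CPM on day 1, which is 4.08 ± 1.03 on the log2 scale (adjusted p = 0.0525) and of 4.15 ± 0.826 with the title style (adjusted p = 0.0192). Ocstamp stood at 0.0824, 0.0774 and 0.644 CPM on day 0, at 0.583 CPM in the double-hyphen day 1 library, and at 5.95 and 7.58 CPM in the other 2 (4.03 ± 0.525 with the title style, adjusted p = 0.00527). The day 3 means were 108 CPM for Dcstamp and 187 CPM for Ocstamp. The number of called fusion genes ranged from 0 to 7 over the alternatives of each fit.

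Of 23 bone resorption genes, 1 rose without the title style, and 5 rose and 1 fell with it, with a median log2 fold change of 0.29 in both. Src, the kinase of the ruffled border and of podosomes, rose from 12.6, 8.13 and 12.2 CPM to 15.2, 41.6 and 57.9 CPM (1.80 ± 0.388, adjusted p = 0.0383). Acp5, the tartrate-resistant acid phosphatase used to stain osteoclasts, stood at 54.6, 24.0 and 51.6 CPM on day 0 and at 86.2, 106 and 151 CPM on day 1, without overlap (1.40 ± 0.352, adjusted p = 0.0522; 0.034 with the title style). Ctsk, which encodes cathepsin K, stood at 25.6, 7.20 and 24.4 CPM and at 73.8, 28.4 and 40.5 CPM, again without overlap (1.32 ± 0.435, adjusted p = 0.108; 0.0493 with the title style).

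The remaining resorption genes varied. Slc9b2, a sodium-proton exchanger, was at or below 0.5 CPM in the day 0 libraries and the double-hyphen day 1 library and at 4.99 and 5.31 CPM in the other day 1 libraries (3.25 ± 0.551 with the title style, adjusted p = 0.0126). Itgav, the vitronectin receptor alpha chain, rose by 1.02 ± 0.247 with the style, and Plekhm1, a lysosome trafficking gene named after its values were seen, fell by 0.655. Itgb3, the beta chain that pairs with Itgav in osteoclasts, was not higher on day 1. It stood at 20.1, 9.44 and 21.4 CPM on day 0 and at 16.8, 7.34 and 11.9 CPM on day 1 (adjusted p = 0.54). Mmp9, a gelatinase, stood at 112, 61.5 and 198 CPM on day 0 and at 124, 334 and 437 CPM on day 1, with overlap (1.27 ± 0.633, adjusted p = 0.274). Calcr, the calcitonin receptor, had 0 counts in all 6 libraries and a mean of 15.2 CPM on day 3.

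**Figure D3:**
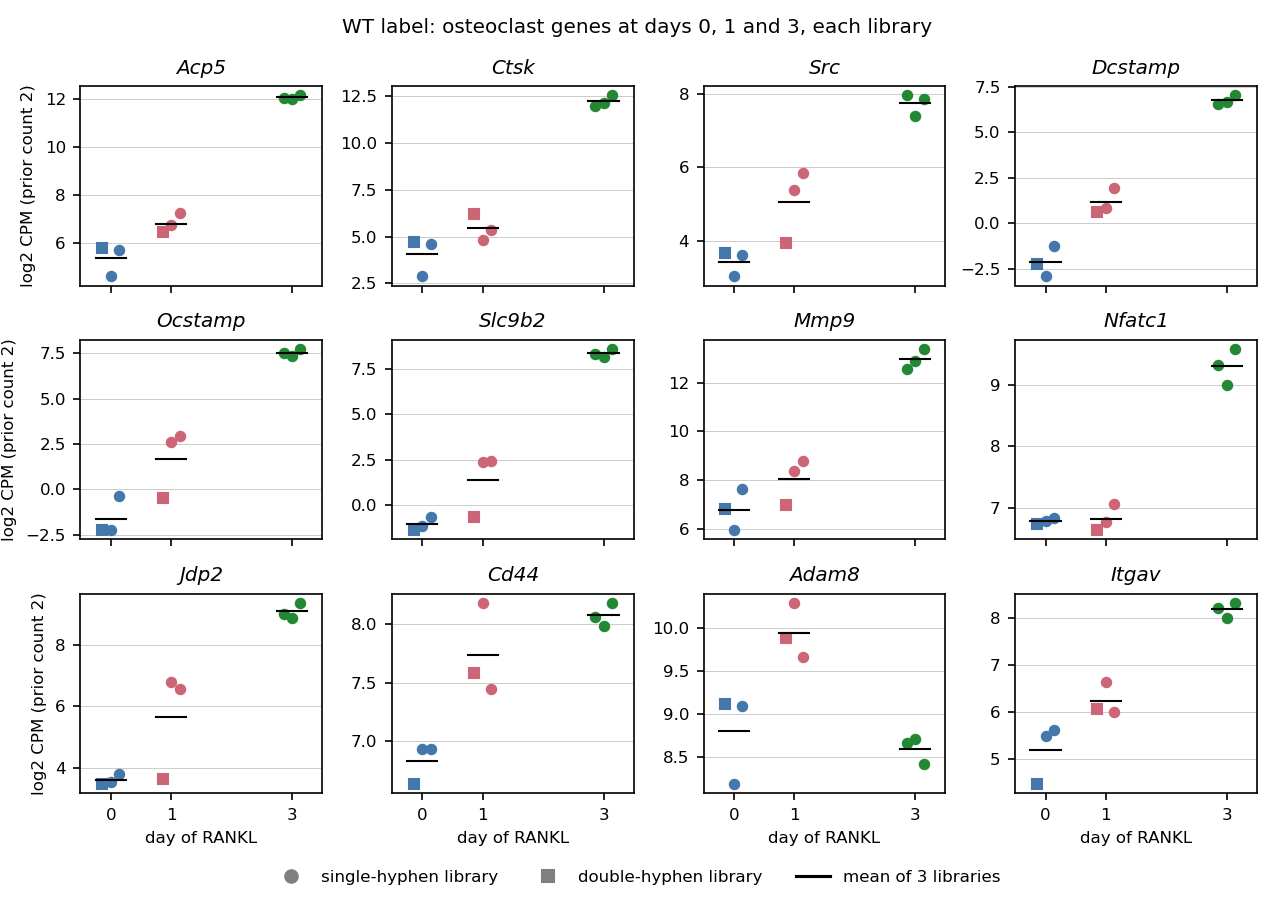
Each panel gives the log2 CPM (prior count 2, vertical axis) of 1 gene in each WT library at days 0, 1 and 3 of RANKL (horizontal axis); squares are double-hyphen libraries, circles single-hyphen ones, bars the mean of 3. Acp5, Ctsk, Dcstamp, Cd44, Adam8, Src and Itgav have no overlap between days 0 and 1, Nfatc1 stays between 99.5 and 134 CPM on both days, and all panels but that of Adam8 have their highest mean on day 3.

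Podosome and integrin genes gave 3 rises of 25 without and 6 with the title style and no fall, with a median log2 fold change of 0.19. Itgb2, the beta chain of leukocyte integrins, went from 852, 445 and 644 CPM to 1661, 1186 and 1274 CPM (1.09 ± 0.221, adjusted p = 0.0381; 0.00708 with the title style). Of 20 genes of ITAM costimulation 1 fell without the title style and 1 rose and 1 fell with it. Lyn, a Src family kinase that phosphorylates ITAMs, fell from 299, 277 and 323 CPM to 222, 139 and 186 CPM (-0.72 ± 0.165, adjusted p = 0.0432). Clec5a, a receptor that couples to the adaptor DAP12, rose with the title style from 12.4, 8.90 and 12.4 CPM to 14.7, 38.3 and 25.3 CPM (1.15 ± 0.292, adjusted p = 0.0343).

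Of 28 macrophage identity genes, 2 fell without the title style (F13a1 and Cd163), and 1 rose and 4 fell with it, with a median of -0.19 and -0.23. Mrc1, the mannose receptor, stood at 1476, 2221 and 1636 CPM on day 0 and at 981, 790 and 997 CPM on day 1 (-0.94 ± 0.243 with the title style, adjusted p = 0.0369). Msr1, a scavenger receptor, went the other way, from 107, 126 and 151 CPM to 140, 299 and 245 CPM (0.80 ± 0.183 with the style, adjusted p = 0.0276). The summed level of the list was 70500 to 99900 CPM on day 0 and 59000 to 95900 CPM on day 1, so the ranges overlapped.

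Inflammatory and antigen presentation lists had medians below 0 with few calls. Of 26 tested inflammatory cytokine genes 1 fell without (Il10) and 2 with the title style (Il10 and Cish, a feedback inhibitor of cytokine receptors, at 2.06 to 2.79 CPM on day 0 and 0.962 to 1.08 CPM on day 1), with a median of -0.39 and -0.435. Chemokines and their receptors (27 tested) had a median of -0.49 and -0.85 and 1 call, a rise of Cxcl16 with the title style (0.92 ± 0.259, adjusted p = 0.0474). MHC class II genes (15 tested) had a median of -0.445 and -0.57. Ifi30, a lysosomal thiol reductase of antigen processing, rose with the style (0.88 ± 0.216, adjusted p = 0.0317), while H2-Ab1 stood at 183, 43.1 and 91.6 CPM and at 129, 28.3 and 33.8 CPM (adjusted p = 0.516). None of the 30 interferon response genes passed in either fit, at a median of -0.33 and -0.34. Gbp2, a guanylate-binding protein, was lower in all 3 day 1 libraries, at 222, 105 and 125 CPM against 60.8, 29.8 and 63.8 CPM (adjusted p = 0.191).

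Levels of markers of other cells varied among the 6 libraries. Neutrophil markers (16 tested, 0 called) averaged 6.13, 4.12 and 6.44 log2 CPM on day 0 and 5.54, 3.37 and 3.71 on day 1, and their summed level was 889 to 3900 CPM against 461 to 2760 CPM. Their median log2 fold change was -1.18 without and -1.22 with the title style, and 0 of 16 had a positive one without it. In the double-hyphen pair their median difference was -0.33. Stromal or osteoblast markers (19 tested, 0 called) averaged 1.36, 2.79 and 5.60 on day 0 and 2.52, 4.5 and 4.38 on day 1. Their sum was 171, 759 and 6110 CPM on day 0 and 425, 4000 and 3430 CPM on day 1, with Col1a1 the most abundant and Lum and Igf2 at a day 0 mean of 0.238 CPM each. T or NK cell, erythroid, megakaryocyte, dendritic cell and granulocytic (mast cell, basophil or eosinophil) markers gave 0 calls without the title style. With it, 1 of 8 of the granulocytic ones fell, Il6ra, named after its values were seen (adjusted p = 0.0497). Il6ra averaged 438 CPM on day 0 and 265 CPM on day 1. The other members tested lay far below it, the highest being Prg2 at 17.3 and 7.28 CPM. The part of these cells in the changes above was not tested.

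Growth genes gave the most calls of the 27 lists with the title style. All 25 ribosome biogenesis genes, a set that MYC regulates in many cells, had a positive log2 fold change; 3 passed without the title style and 15 with it (medians 0.77 and 0.75), and none fell. Bop1, which matures the large ribosomal subunit, stood at 44.9, 37.5 and 55.1 CPM on day 0 and at 59.9, 99.5 and 75.1 CPM on day 1 (0.77 ± 0.161, adjusted p = 0.0381). Ddx21, a nucleolar helicase, went from 61.1, 54.6 and 86.2 CPM to 83.2, 172 and 121 CPM (0.90 ± 0.219, adjusted p = 0.0478), and Mybbp1a and Rrp12 passed only with the title style. Their median difference was 0.32 on the log2 scale in the double-hyphen pair and 0.93 in the fit of the single-hyphen libraries, and the called number ran from 0 to 19 and from 0 to 22 over the alternatives of the 2 fits.

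Cell cycle and DNA replication genes had the highest median of the 27 lists without the title style, 0.91 with 30 of 30 positive, yet 0 of 30 passed without it (edgeR) and 1 with it, Mcm2, a subunit of the replicative helicase. Mcm2 stood at 19.2, 13.2 and 45.5 CPM on day 0 and at 26.2, 133 and 62.3 CPM on day 1 (1.355 ± 0.378 with the style, adjusted p = 0.0466). The mean log2 CPM of the list was 4, 3.84 and 5.21 on day 0 and 3.83, 6.05 and 5.72 on day 1. The double-hyphen day 1 library lay below all 3 of day 0, and the median difference of the double-hyphen pair was -0.06. Without that library 11 of the 30 genes passed in the fit without the style.

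Cholesterol synthesis gave the second most calls with the title style. Of 24 genes, 3 passed without the title style and 10 with it, none fell, and 22 were positive, with a median of 0.53 and 0.55. Lss, the lanosterol synthase, stood at 27.4, 26.4 and 33.5 CPM on day 0 and at 45.1, 65.3 and 52.3 CPM on day 1 (0.90 ± 0.15, adjusted p = 0.0342). Fdft1, the squalene synthase, stood at 29.4, 21.8 and 21.0 CPM and at 35.4, 51.8 and 41.2 CPM (0.83 ± 0.16, adjusted p = 0.0342). Sqle, the squalene epoxidase, passed with the title style (1.13 ± 0.225). In the KO label Lss and Fdft1 were 2 of the 3 genes called for day 1 against day 0, at log2 1.17 and 1.22 (adjusted p = 0.0127 for both); the third was Dusp18, named after its values were seen.

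Glycolysis genes gave 2 rises of 20 without and 4 with the title style, with a median of 0.49 in both. Pkm, the pyruvate kinase, stood at 1065, 799 and 1180 CPM on day 0 and at 1563, 2756 and 2486 CPM on day 1 (1.16 ± 0.208, adjusted p = 0.0342). Slc2a1, the glucose transporter GLUT1, went from 20.9, 20.0 and 29.4 CPM to 51.3, 47.9 and 44.2 CPM, with all 3 day 1 libraries close to each other (1.03 ± 0.208, adjusted p = 0.0381). In serine synthesis and amino acid stress 0 of 20 passed without and 2 with the title style (median 0.66 and 0.60), Slc7a11 and Shmt1, a serine hydroxymethyltransferase. Of 26 respiratory chain genes Atp5b, a subunit of ATP synthase, alone passed with the style (0.51 ± 0.138, adjusted p = 0.0419; median of the list 0.26), and none of the 13 mitochondrially encoded transcripts did, although their share of counts followed the title style.

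**Figure D4:**
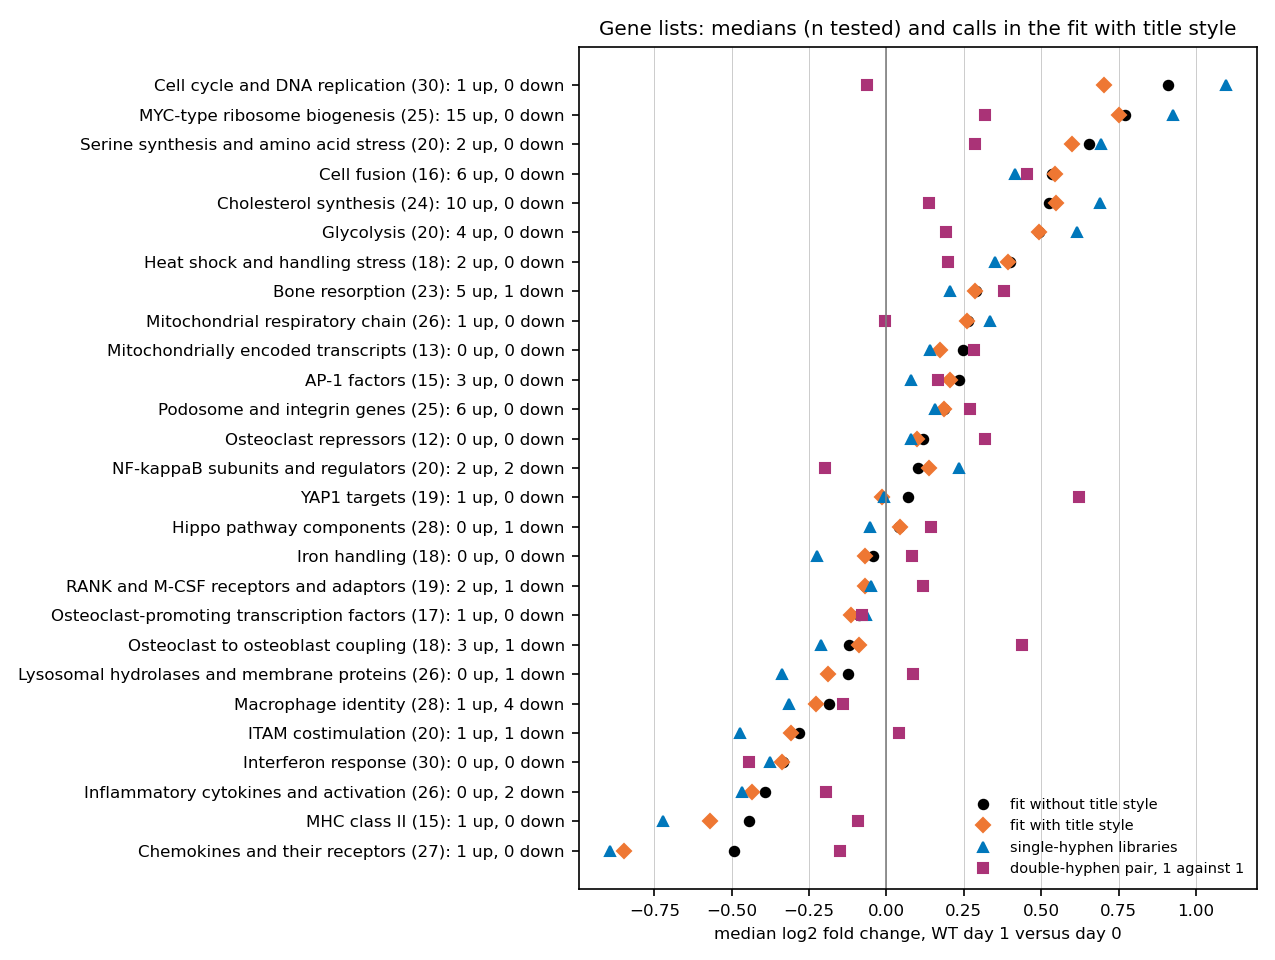
Points give the median log2 fold change of WT day 1 against day 0 (horizontal axis) for each of 27 gene lists, in the fits without (black) and with (orange) the title style, in the single-hyphen libraries (blue) and in the double-hyphen pair of 1 library each (purple); the labels give the genes tested and the calls with the title style. Ribosome biogenesis, with 15 rises, and cholesterol synthesis, with 10, lie near 0.75 and 0.55, chemokines and MHC class II genes lie lowest, and the double-hyphen pair lies nearer to 0 in most lists at both ends.

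The other lists gave few calls. Among 18 coupling genes, which osteoclasts use to signal to osteoblasts, C3, a complement component, rose in both fits, from 129, 45.0 and 88.9 CPM to 213, 428 and 622 CPM (2.27 ± 0.512, adjusted p = 0.0412). With the title style Pdgfb and Cxcl16 rose and Bmp2 fell. Of 18 heat shock and handling stress genes Hsph1 and Bag3 rose with the style and none passed without it. Of 26 lysosomal genes Hexa fell with the style, by 0.64 ± 0.152, and none of 18 iron handling genes passed in either fit.

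Of 28 Hippo pathway genes none passed without the title style and 1, Frmd6, fell with it. Stk4, which encodes the kinase MST1, was lower in all 3 day 1 libraries, at 201, 210 and 186 CPM on day 0 and 69.1, 138 and 158 CPM on day 1, without passing (-0.71 ± 0.309, adjusted p = 0.211). Lats1 lay between 49.2 and 57.4 CPM throughout. Yap1 stood at 0.824, 3.48 and 23.9 CPM on day 0 and at 3.17, 18.3 and 17.9 CPM on day 1 (adjusted p = 0.795). The YAP1 target Cyr61 stood at 5.28, 31.4 and 150 CPM and at 14.3, 75.8 and 62.3 CPM (adjusted p = 0.892). Both results rested on day 0 library 3, the highest of the 6 for both genes. Without it Yap1 passed in both fits (log2 2.60, adjusted p = 0.047, and 2.33, adjusted p = 0.00407, with the title style), and Cyr61 passed with the style (1.28, adjusted p = 0.0218) and not without it (1.47, adjusted p = 0.256). The order of the 6 libraries in Yap1 and Cyr61 followed that of the stromal markers given above, whose part in these levels was not tested. Of 19 tested YAP1 targets Dock5 alone rose with the style (1.035 ± 0.278, adjusted p = 0.0414). Trim46 stayed under 1.3 CPM in all 6 libraries and Mst1 under 0.6 CPM.

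The change was then read within each title style. In the single-hyphen libraries alone, 2 against 2, 1051 of 15011 genes passed (7%), 676 higher (4.5%) and 375 lower (2.5%), and 273 of the 335 were among them. Of the 674 higher genes that were also tested in all libraries, 539 (80%) were higher on day 1 in the double-hyphen WT pair, which this fit did not use. The median difference there was 0.25 on the log2 scale against 0.975 in the single-hyphen libraries that chose them. Of the 374 lower genes 292 (78.1%) were lower in that pair, with a median of -0.25 against -0.97. Over all genes 57% were higher and 43% lower in the pair. The direction was thus shared by most called genes, in 1 library against 1 with no replicate. The smaller size there is no test of a difference, because the larger values come from the libraries that chose the genes.

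A test of whether the change itself differed between the styles, with the lone double-hyphen libraries taken to vary like the rest, called 5 genes (0.0351%). An unadjusted p under 0.05 was found for 1273 genes (8.94% of those tested). Of the 335 genes, 204 of 205 higher and 130 of 130 lower had the same direction in the double-hyphen pair, at medians of 0.52 and -0.53 against 1.055 and -0.98 in the single-hyphen libraries. Here the pair was among the libraries that chose the genes, so this is a description.

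**Figure D5:**
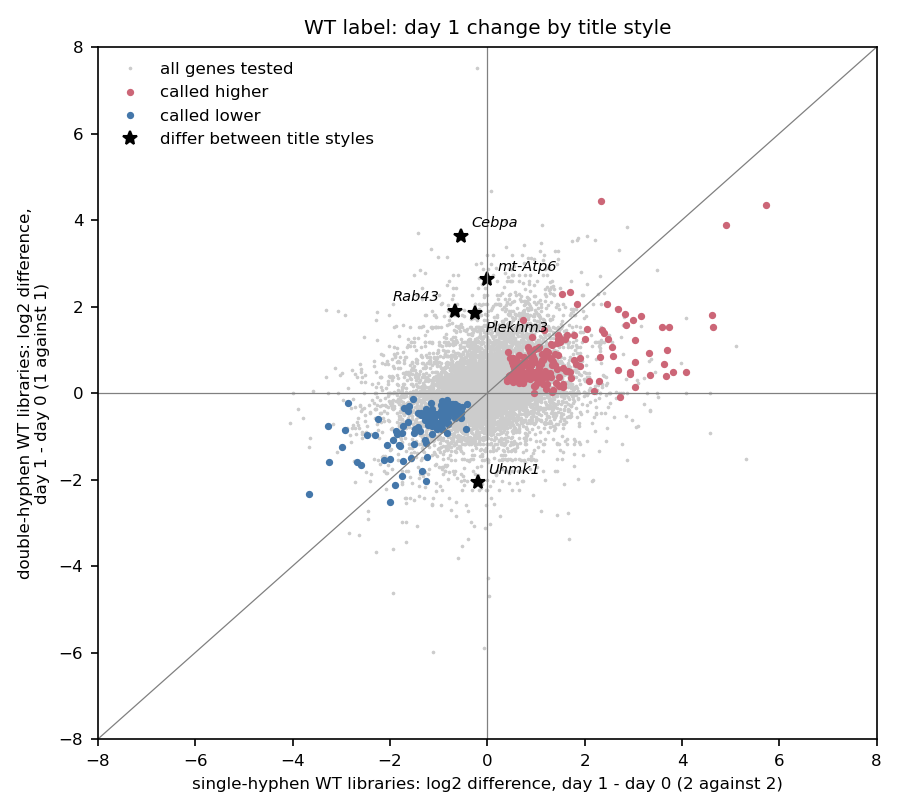
Each point is a gene, with its log2 difference between day 1 and day 0 in the single-hyphen WT libraries (horizontal axis, 2 against 2) and in the double-hyphen WT libraries (vertical axis, 1 against 1); genes called higher are red, lower blue, the 5 genes that differ between the styles black stars, and the grey diagonal marks equal change. Most red and blue points lie between the horizontal axis and the diagonal, at medians of 1.055 against 0.52 and of -0.98 against -0.53, and the stars are the genes named with their values in the closing part.

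The KO label gave a separate set of libraries for the same days, 3 against 3. Its double-hyphen libraries were library 2 of day 0 and libraries 1 and 2 of day 1. Unlike in WT, the title style was therefore not balanced between the days. The part of the title style in the KO values was not tested. Of the 205 genes that rose in WT, 199 had a positive log2 fold change in the KO label, with a median of 0.36. Of the 130 that fell, 128 had a negative one, with a median of -0.495; over all genes 50.2% were positive and the median was 0.002. Ass1 had about the same log2 fold change in both labels (2.85 and 3.02), as did Il10 and Lifr in direction (-1.945 and -1.165, -1.88 and -1.145), whereas Cd38 had -2.42 in WT and 0.05 in KO, and Cd44 0.94 and -0.07. The difference between the labels was not called for any gene by edgeR, without or with the title style. Of 14241 genes tested, 527 (3.7%) without and 803 (5.64%) with the style had an unadjusted p under 0.05. DESeq2 called 0 without and 2 with the style, Rnh1 and 1 of the 2 rows named Umad1, which had counts in 1 of the 3 WT day 0 libraries; both were named after their values were seen. In the KO label 3 genes passed without and 18 with the title style, against 335 and 1001 in WT. That difference in counts is no test of a difference in response.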

How the data were processed

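RNA of BMDMs had been extracted with an RNeasy kit and made into 18 libraries with a SMARTer mRNA-Seq kit. The deposited table holds raw counts per gene and FPKM values, which the authors made with StringTie and Ballgown on GRCm38.p4 (mm10); the aligner and the program behind the counts are not given in the sources used here. The FPKM columns were not tested.

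Of 34745 genes, 14241 passed filterByExpr (minimum count 10). Counts of all 18 libraries were fitted with edgeR 4.0.16 (R 4.3.3) in 6 groups, with TMM scaling, quasi-likelihood F tests and Benjamini-Hochberg adjustment at 0.05, without and with the title style as covariate. DESeq2 1.42.0, other scalings and filters, and each library left out were alternatives. Scripts were tested on simulated data. Standard errors were derived from the F statistic. Groups and days came from the sample labels.

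Named genes were those of the study's topic, the 12 largest changes a direction called in both fits (at least 5 CPM, no overlap), the 6 largest a direction called only with the title style (at least 10 CPM) and up to 4 a list. The comparison, genes and lists were chosen with earlier results of these data known. A count of 0 allowed up to 3 counts, 0.18 to 0.25 CPM in these 6 libraries; this covers counting error only. Values of some genes are not reported here.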

Additional observations from a re-analysis of the deposited data

Results flagged for a closer look

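The day 1 change in the WT label differed between the title styles for 5 genes at an adjusted p under 0.05 (edgeR interaction of style and day, 1 double-hyphen library a day taken to vary like the rest). Cebpa, a myeloid transcription factor, had a difference of 4.186 on the log2 scale (adjusted p = 0.0253): it stood at 22.6, 221 and 267 CPM on day 0 and at 284, 177 and 160 CPM on day 1. For mt-Atp6, a mitochondrially encoded ATP synthase subunit, the difference was 2.677 (adjusted p = 0.0289), with 4586 CPM in the double-hyphen day 1 library and 224 to 738 CPM in the other 5. For Rab43, a small GTPase, it was 2.54 and for Plekhm3 2.104 (adjusted p = 0.0139 for both), both lowest in the double-hyphen day 0 library, at 50.8 and 28.8 CPM. For Uhmk1, a kinase, it was -1.867 (adjusted p = 0.0129), with 48.6 CPM in the double-hyphen day 1 library and 175 to 220 CPM in the others. Each of these values rests on 1 library, and groups of 3 libraries were too small to be examined for outliers.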

How the results depend on the processing

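Of the 335 genes called without the title style, the count became 1001 with it, 1051 in the 13 single-hyphen libraries, 126 without the filter on low counts, 206 with total counts in place of TMM, 1221 with DESeq2's Wald test, 1589 where a 1.5-fold change was asked of genes at p under 0.05, unadjusted, 573 with the WT day 1 libraries numbered 1 summed, and 0 in the 6 WT libraries alone, with or without the style (1790 and 1380 genes at an unadjusted p under 0.05); it ran from 0 to 1809 with single libraries left out. Of the 1001 with the title style, it became 0 in the 6 WT libraries, 2075 with DESeq2 and 1876 at the unadjusted threshold, and ran from 31 to 2279 with single libraries left out. The interaction of label and day, with the style, gave 0 genes with edgeR and 2 with DESeq2, and that of style and day 5 and 102. The cause of these differences was not tested. Total counts moved the median log2 fold change of all genes to 0.056.

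The replicate numbers named fewer than 3 pairs of WT days 0 and 1 and were not taken as pairing. Deviations from the group means correlated at 0.604 for the double-hyphen libraries numbered 1, at -0.464 for the double-hyphen day 0 and single-hyphen day 1 library of that number, and at 0.138 for those numbered 2. With the replicate number as a block, 9 genes were called without and 475 with the title style. Cyr61 turned to 0.46 and 0.17 under the block.

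The other reversals were of genes not called in the fit concerned. Of the reversed values 1 passed, that of Cyr61 with the style and without day 0 library 3 (1.28, adjusted p = 0.0218). In the 6 WT libraries with the style, Cyr61 turned to 0.15 and Zmat1 to 0.05. In the single-hyphen libraries Zmat1 turned to 0.53 and Mst1 to 0.10. With total counts Lats1 turned to 0.02 in both fits and, with the style, Zmat1 to 0.03 and Cyr61 to 0.05; DESeq2 gave 0 for Cyr61 with the style. With single libraries left out, the log2 fold changes ran without and with the style from -0.40 to 0.52 and -0.27 to 0.47 for Zmat1, from -0.09 to 0.14 and -0.06 to 0.11 for Nfatc1, from -0.83 to 1.47 and -0.49 to 1.28 for Cyr61, from -1.19 to 0.31 and -1.22 to 0.46 for Mst1, from -0.07 to 0.02 and -0.08 to 0.03 for Lats1, and from -0.12 to 2.03 and -0.20 to 1.91 for Trim46. Without the style they ran from -0.05 to 2.60 for Yap1, which passed in both fits without day 0 library 3, and from -0.04 to 0.74 for Jund. With 3 libraries a day, of which 1 stood apart by title style, the counts of calls moved with single libraries, and the part of sequencing depth was not tested.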
